A study of Mus musculus with 12 samples.

Results

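The genes of the major histocompatibility complex (MHC, called H2 in the mouse) and of antigen presentation were read on 76 probes for 49 genes, out of 41174 non-control probes and 22923 gene names on the array. The members are every probe whose gene name begins with H2-, which gave 57 probes for 36 genes, and the probes of 13 further genes: B2m, Tap1, Tap2, Tapbp, Psmb8, Psmb9, Psmb10, Nlrc5, Ciita, Cd74, Erap1, Calr and Pdia3. The group was picked with its change from day 1 to day 3 in each culture format in view, so those changes are given here as a description, without a test. Of the 76 probes, 62 lie on chromosome 17 and 2 have no position in the files.

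The samples are mouse embryonic stem cells of strain 129, with 2 arrays in each of 6 groups. The groups are the undifferentiated cells, embryoid bodies (cells grown as floating aggregates, EB) at days 1, 3 and 4, and monolayers (cells grown as a flat layer, ML) at days 1 and 3. No genotype change or added agent is named in the descriptions of the cells, though the titles of the undifferentiated samples carry the word LIF, the name of a cytokine used to hold stem cells undifferentiated. The 2 arrays of a group are described as clone #1 and clone #2 and as independent experiments done by different people, so the spread within a group mixes clone, experiment and operator.

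Class I MHC molecules sit on the surface of most nucleated cells and show peptides cut from the cell's own proteins to cytotoxic T cells. Each is a heavy chain (H2-K, H2-D and many non-classical relatives) bound to the light chain beta-2 microglobulin. The peptides come from the proteasome, whose inducible subunits are encoded by Psmb8, Psmb9 and Psmb10, enter the endoplasmic reticulum through the Tap1 and Tap2 transporter, are trimmed by Erap1, and are loaded with the help of tapasin, calreticulin and Pdia3. Class II molecules show peptides from endocytosed proteins, mainly on specialised immune cells, with the invariant chain Cd74 and the DM and DO proteins governing loading. Embryonic stem cells are known for low surface class I, and interferons and the regulators Nlrc5 and Ciita raise class I and class II transcription.

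The class I genes are close copies of each other, which limits how far a probe of 60 bases can tell them apart. Of the 27 class I heavy chain and related probes that passed the filter on dim probes, 10 were at least 75% identical, over 40 bases or more, to a probe of another class I gene, and 5 member probes are listed in the files with RefSeq transcripts of more than 1 gene. The pairs below show this, with the bases that differ in their overlap in capitals (probe positions in mm9, the build of the files). The H2-D1 probe lies at chr17:35403132-35403191 on the plus strand and the H2-Q2 probe at chr17:35482113-35482172 on the plus strand, and 47 of the 50 bases where they overlap match.
H2-D1: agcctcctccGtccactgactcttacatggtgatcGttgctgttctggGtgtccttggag
H2-Q2: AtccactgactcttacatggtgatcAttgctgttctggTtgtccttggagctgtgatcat

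The H2-T23 and H2-Q7 probes match at 50 of 59 bases, again with the differing bases in capitals. Their genomic spans are longer than the probes, chr17:36167338-36167574 on the minus strand for H2-T23 and chr17:35579687-35579918 on the plus strand for H2-Q7.
H2-T23: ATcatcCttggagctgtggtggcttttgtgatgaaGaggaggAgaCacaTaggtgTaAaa
H2-Q7: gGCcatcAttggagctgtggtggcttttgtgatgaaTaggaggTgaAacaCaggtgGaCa

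The probes named H2-Q5 and H2-Q10 share 35 bases without a mismatch, and here the capitals mark the shared run. The H2-Q10 probe lies at chr17:35610210-35610269 on the plus strand and lists transcripts of H2-D1, H2-Q1, H2-Q10 and H2-Q6. The H2-Q5 probe has no position in the files.
H2-Q5: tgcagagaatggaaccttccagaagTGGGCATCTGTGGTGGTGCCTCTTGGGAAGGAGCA
H2-Q10: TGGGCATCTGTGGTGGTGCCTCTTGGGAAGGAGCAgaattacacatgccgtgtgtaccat

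For contrast, the probe of H2-Oa, a class II chain, at chr17:34232033-34232092 on the plus strand, and that of Psmb8, at chr17:34337828-34338152 on the plus strand, share no run of 20 bases with another member probe. They are shown because both carry results below, with no part in capitals.
H2-Oa: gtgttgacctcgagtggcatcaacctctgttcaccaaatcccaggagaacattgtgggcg
Psmb8: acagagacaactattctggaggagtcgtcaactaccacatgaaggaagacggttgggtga

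A level is given here as the log2 processed signal of a probe minus the log2 of the array's 75th percentile, so 0 is the 75th percentile of that array and each step of 1 is a doubling. Levels are compared across arrays for 1 probe, never between probes. A probe was kept where some group had both of its arrays well above background. By this filter 56 member probes for 33 genes remained, 44 of them above background on all 12 arrays. The other 20 probes were left out, and 16 genes had no probe kept. These are Ciita, H2-Aa, H2-DMb2, H2-Ea-ps, H2-Eb2, H2-Ob, H2-T3, H2-T24 and the 8 genes of the H2-M group named H2-M1, H2-M9, H2-M10.1, H2-M10.2, H2-M10.4, H2-M10.5, H2-M10.6 and H2-M11. Ciita and H2-Aa, the alpha chain of the class II A molecule, were above background on no array, while both classical class I genes were well measured in all. Where a gene has several probes, values are for the probe with the highest mean level over the arrays, unless another is named.

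On the arrays, 52.1% to 63.8% of probes were well above background, with a 75th percentile signal of 326 to 596. The undifferentiated arrays, the EB day 4 arrays, the EB day 1 and day 3 arrays and the ML arrays each came from a slide of their own. Undifferentiated cells and EB day 4 were also each scanned on a day of their own, and EB day 4 on a second scanner, so slide and scan day cannot be told apart from these groups, and slide cannot be told apart from culture format. Summed levels of 10 stem cell marker genes, in units of the array's 75th percentile, were 691 to 797 in undifferentiated cells, 160 to 202 in EB day 3, 129 to 278 in ML day 3 and 33.6 to 48.6 in EB day 4. Dppa5a carried the largest part of each sum. Without it the sums were 205 to 219, 31.6 to 48.5, 33.7 to 44.5 and 16 to 16.7, in that order.

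The classical class I genes were lowest in ML day 1 and highest in ML day 3. H2-K1, which presents peptides to cytotoxic T cells, had levels of 3.71 and 3.69 in undifferentiated cells, 4.22 and 3.80 in EB day 1, 3.99 and 3.92 in EB day 3, 3.78 and 3.49 in EB day 4, 2.77 and 2.82 in ML day 1, and 5.15 and 4.99 in ML day 3. H2-D1, its partner at the other end of the complex, had 2.56 and 3.04 in undifferentiated cells, 3.16 and 2.76 in EB day 1, 2.95 and 2.96 in EB day 3, 2.62 and 2.49 in EB day 4, 2.38 and 2.26 in ML day 1, and 4.38 and 4.16 in ML day 3. For both genes the ML day 1 arrays lay below, and the ML day 3 arrays above, all 10 other arrays, and the EB arrays overlapped between days 1 and 3. From day 1 to day 3 the monolayers differed by 2.28 (SE 0.21) for H2-K1 and 1.95 (SE 0.23) for H2-D1 on the log2 scale, which are 4.85-fold and 3.86-fold, against -0.05 (SE 0.21) and 0.00 in embryoid bodies.

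**Figure D1:**
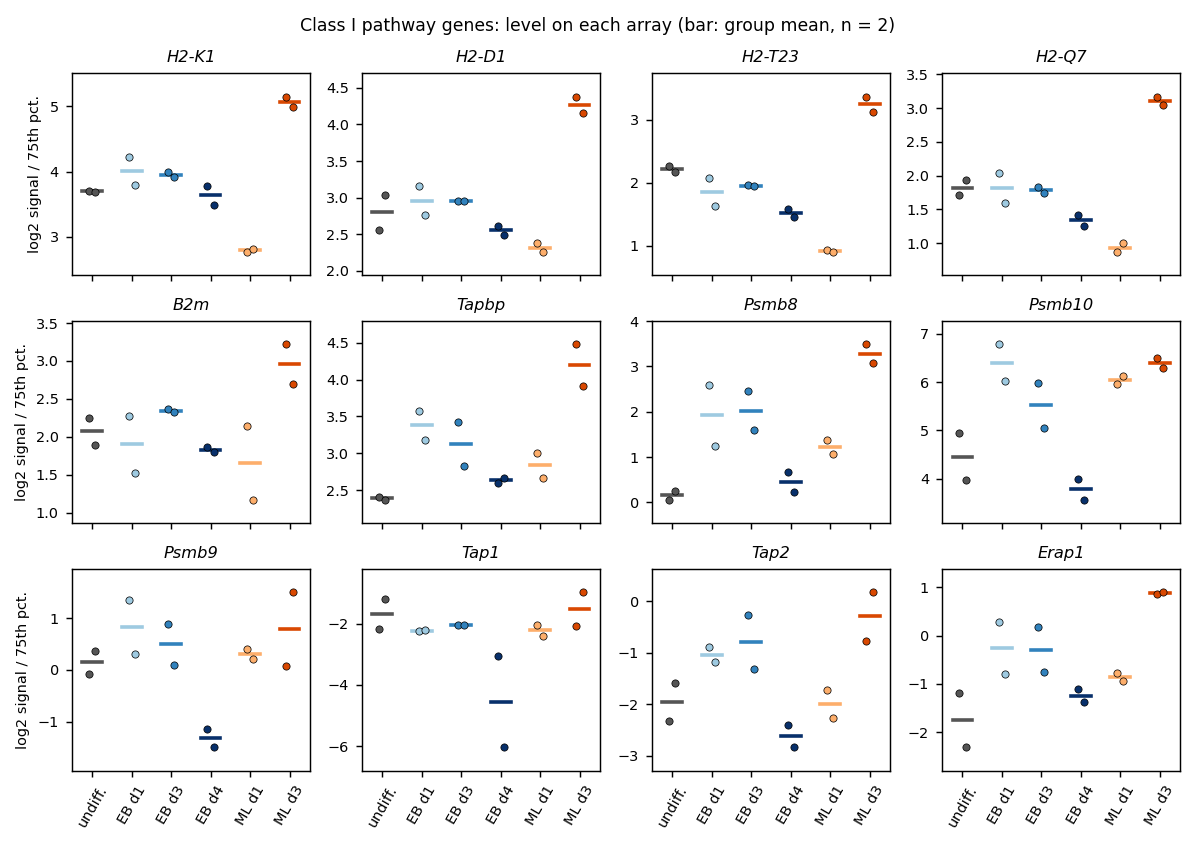
Level on each of the 12 arrays (vertical axis, log2 processed signal over the array's 75th percentile, a separate scale for each gene) for 12 class I pathway genes in the 6 groups, with a point for each array and a bar at the mean of 2. H2-K1, H2-D1, H2-T23 and H2-Q7 show both ML day 3 arrays above every other array, at 5.15 and 4.99 for H2-K1, while Psmb10 is as high in EB day 1 as in ML day 3.

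A pair of non-classical class I genes, H2-T23 and H2-Q7, was also lowest in ML day 1 and highest in ML day 3. H2-T23, which encodes Qa-1, a ligand of receptors on natural killer cells, had 2.27 and 2.17 in undifferentiated cells, 2.07 and 1.63 in EB day 1, 1.96 and 1.95 in EB day 3, 1.59 and 1.45 in EB day 4, 0.93 and 0.90 in ML day 1, and 3.37 and 3.12 in ML day 3. H2-Q7, which encodes the Qa-2 antigen, had 1.71 and 1.93 in undifferentiated cells, 2.04 and 1.60 in EB day 1, 1.83 and 1.74 in EB day 3, 1.42 and 1.26 in EB day 4, 0.87 and 1.00 in ML day 1, and 3.17 and 3.04 in ML day 3. For both, no EB or undifferentiated array reached the ML day 3 arrays or went as low as the ML day 1 arrays. The changes from day 1 to day 3 were 2.33 (SE 0.21) for H2-T23 and 2.18 (SE 0.21) for H2-Q7 in monolayers, and 0.10 and -0.03 in embryoid bodies.

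The probes of H2-K2, H2-Gs10, H2-Q2, H2-Q5 and H2-Q10, among which several share sequence, gave near copies of this pattern. H2-K2 had 2.45 and 2.46 in undifferentiated cells, 2.39 and 1.90 in EB day 1, 2.19 and 2.09 in EB day 3, 1.98 and 1.73 in EB day 4, 1.22 and 1.07 in ML day 1, and 3.82 and 3.39 in ML day 3. H2-Gs10 had 2.38 and 2.71, 2.94 and 2.47, 2.54 and 2.43, 2.42 and 2.23, 1.59 and 1.67, and 3.85 and 3.69, in the same order of groups. In both, the ML day 1 pair was the lowest and the ML day 3 pair the highest. In that order H2-Q2 had 2.40 and 2.54, 2.46 and 2.07, 2.32 and 2.18, 2.08 and 1.93, 1.47 and 1.40, and 3.89 and 3.55. H2-Q5 had 2.26 and 2.45, 2.40 and 1.91, 2.22 and 1.91, 1.64 and 1.5, 1.35 and 1.31, and 3.65 and 3.39. H2-Q10, known as a secreted class I molecule of the liver, had 2.52 and 2.71, 2.65 and 2.24, 2.47 and 2.22, 2.06 and 1.87, 1.53 and 1.46, and 3.87 and 3.59. The H2-Q10 probe with transcripts of 4 genes on its list cannot say which of them was measured. The changes in monolayers from day 1 to day 3 ran from 2.14 for H2-Gs10 to 2.46 for H2-K2, and those in embryoid bodies from -0.22 for H2-Gs10 to -0.01 for H2-K2 and H2-Q2.

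H2-Q8 and H2-Bl departed from this in part. H2-Q8 had -0.42 and -0.84 in undifferentiated cells, 1.08 and 1.11 in EB day 1, 1.15 and 1.39 in EB day 3, 1.29 and 0.08 in EB day 4, -0.35 and -0.56 in ML day 1, and 2.13 and 2.25 in ML day 3, so the EB arrays stood above the undifferentiated ones. H2-Bl had -1.34 and -0.89, -0.71 and -1.13, -0.69 and -1.0, -1.23 and -1.68, -1.52 and -1.29, and 1.43 and 0.76 in the same order, and its ML day 1 arrays overlapped those of EB day 4 and of undifferentiated cells. From day 1 to day 3 in monolayers the change was 2.65 (SE 0.35) for H2-Q8 and 2.50 (SE 0.30) for H2-Bl. Both were above background on all 12 arrays. A pair of other probes that an older annotation in the files also names H2-Bl differed by 3.60 and 3.3 in monolayers and by 0.08 and 0.13 in embryoid bodies.

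H2-M3, H2-T22 and H2-Q1 showed smaller or less even differences. H2-M3, which presents formylated peptides, had -0.82 and -1.10 in undifferentiated cells, -0.33 and -0.88 in EB day 1, -0.69 and -1.69 in EB day 3, -2.03 and -2.75 in EB day 4, -1.24 and -1.01 in ML day 1, and -0.50 and 0.06 in ML day 3. H2-T22, a ligand of gamma delta T cells, had 1.28 and 1.72, 1.99 and 1.18, 1.81 and 1.97, 2.08 and 1.78, 1.11 and 0.68, and 1.46 and 2.44 in that order. For H2-T22 the ML day 3 arrays overlapped those of every EB group. H2-Q1 had -2.24 and -0.01 in undifferentiated cells, which differ by more than any later pair, then -0.41 and -0.51, -0.24 and -1.14, -2.69 and -3.04, -1.78 and -2.54, and 0.04 and -0.33. The monolayer changes from day 1 to day 3 were 0.91 (SE 0.39) for H2-M3, 1.06 (SE 0.38) for H2-T22 and 2.02 (SE 0.62) for H2-Q1, against -0.58, 0.30 and -0.23 in embryoid bodies.

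B2m, the light chain that every class I molecule needs, had levels of 2.25 and 1.89 in undifferentiated cells, 2.28 and 1.52 in EB day 1, 2.36 and 2.33 in EB day 3, 1.86 and 1.80 in EB day 4, 2.14 and 1.17 in ML day 1, and 3.22 and 2.69 in ML day 3. The ML day 3 pair was again the highest, but the ML day 1 arrays lay far apart and overlapped most other groups. B2m differed from day 1 to day 3 by 1.30 (SE 0.36) in monolayers and by 0.44 in embryoid bodies.

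Of the transporter, tapasin and trimming genes, Tapbp and Erap1 had their highest arrays in ML day 3, and Tap1 and Tap2 did not stand clear there. Tapbp, which encodes tapasin, the bridge between the transporter and class I, had 2.41 and 2.37 in undifferentiated cells, 3.58 and 3.18 in EB day 1, 3.42 and 2.83 in EB day 3, 2.60 and 2.67 in EB day 4, 3.00 and 2.67 in ML day 1, and 4.48 and 3.91 in ML day 3. Tap2, a subunit of the peptide transporter, had -2.33 and -1.58, -0.89 and -1.18, -0.26 and -1.32, -2.40 and -2.84, -1.73 and -2.26, and -0.77 and 0.18 in the same order. Tap1, the other subunit, had -2.17 and -1.21, -2.25 and -2.21, -2.04 and -2.03, -3.05 and -6.04, -2.03 and -2.41, and -2.09 and -0.97, and its EB day 4 arrays differed from each other by more than any other group's. Tapbp in ML day 3 stood clear of all other arrays, whereas Tap1 and Tap2 in ML day 3 overlapped other groups. Erap1, the trimming peptidase, had -1.19 and -2.31, 0.28 and -0.80, 0.17 and -0.76, -1.11 and -1.38, -0.77 and -0.94, and 0.86 and 0.90, with both ML day 3 arrays the highest. From day 1 to day 3 in monolayers the changes were 1.36 (SE 0.28) for Tapbp, 1.70 (SE 0.44) for Tap2, 0.69 (SE 0.80) for Tap1 and 1.74 (SE 0.46) for Erap1, and those in embryoid bodies -0.25, 0.24, 0.19 and -0.04.

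The 3 inducible proteasome subunits differed in pattern. Psmb8 had 0.06 and 0.26 in undifferentiated cells, 2.60 and 1.25 in EB day 1, 2.45 and 1.59 in EB day 3, 0.67 and 0.23 in EB day 4, 1.37 and 1.07 in ML day 1, and 3.49 and 3.07 in ML day 3. Psmb9 had -0.07 and 0.36, 1.35 and 0.30, 0.89 and 0.10, -1.13 and -1.49, 0.41 and 0.21, and 0.07 and 1.5 in the same order. Psmb10 had 4.94 and 3.97, 6.78 and 6.02, 5.98 and 5.06, 4.00 and 3.57, 5.96 and 6.13, and 6.49 and 6.30. Psmb8 was highest in ML day 3, Psmb10 was above both undifferentiated arrays on every day 1 and day 3 array and within or below their range in EB day 4, and the Psmb9 arrays of ML day 3 spanned those of EB day 1. From day 1 to day 3 in monolayers Psmb8 differed by 2.06 (SE 0.44), Psmb9 by 0.47 (SE 0.50) and Psmb10 by 0.35 (SE 0.41), and in embryoid bodies by 0.10, -0.34 and -0.88.

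The chaperones and the class I regulator did not share the high levels of ML day 3. Calr, the chaperone calreticulin, had 3.81 and 4.03 in undifferentiated cells, 3.47 and 3.32 in EB day 1, 2.88 and 3.05 in EB day 3, 3.61 and 3.54 in EB day 4, 3.43 and 3.60 in ML day 1, and 2.55 and 3.12 in ML day 3. Pdia3, a disulphide isomerase of the loading complex, had 3.70 and 3.12, 4.19 and 4.22, 3.82 and 4.11, 3.90 and 3.71, 4.32 and 4.39, and 3.65 and 4.33. Nlrc5 had -4.87 and -6.15, -5.27 and -4.79, -4.32 and -5.19, -5.02 and -4.58, -4.56 and -4.53, and -4.38 and -5.41, near the limit of detection. None of the 3 was higher at day 3 than at day 1 in monolayers, at -0.68 (SE 0.23) for Calr, -0.37 (SE 0.28) for Pdia3 and -0.36 (SE 0.49) for Nlrc5. H2-Ke2, which encodes a prefoldin subunit and is no MHC molecule despite its name, had 4.71 and 4.24, 5.20 and 4.94, 4.60 and 4.57, 4.44 and 4.53, 5.08 and 5.47, and 5.0 and 5.12, with a monolayer change of -0.22.

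The class II genes fell into separate patterns. H2-Ab1, the beta chain of the A molecule, had -2.38 and -0.62 in undifferentiated cells, -1.95 and -2.78 in EB day 1, 0.25 and 1.02 in EB day 3, 0.70 and 0.74 in EB day 4, -3.25 and -3.31 in ML day 1, and -1.14 and -0.36 in ML day 3. H2-Oa, a chain of the DO protein that tempers peptide exchange, had -4.72 and -3.46, -4.69 and -4.75, -2.66 and -1.72, -0.78 and -0.48, -5.19 and -5.02, and -3.77 and -3.08. Unlike the class I genes, these were higher at day 3 than at day 1 in both formats, and EB day 3 and EB day 4 held the highest arrays. H2-Ab1 differed from day 1 to day 3 by 3.00 (SE 0.55) in embryoid bodies and 2.53 (SE 0.55) in monolayers, and H2-Oa by 2.53 (SE 0.44) and 1.68 (SE 0.44). H2-Oa was not well above background in ML day 1, so that last difference is a bound of at least 3.08-fold.

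H2-DMa, H2-DMb1, H2-Eb1 and Cd74 each took another course. Cd74, the invariant chain, had -2.87 and -2.76 in undifferentiated cells, -2.07 and -1.98 in EB day 1, -2.3 and -2.39 in EB day 3, -2.46 and -3.18 in EB day 4, -2.40 and -2.26 in ML day 1, and -1.21 and -1.36 in ML day 3. H2-DMa, a chain of the DM exchange protein, had -2.65 and -2.19, -2.11 and -2.13, -1.64 and -1.83, -2.73 and -2.88, -2.71 and -2.87, and -1.98 and -1.32. H2-DMb1, the partner chain of DM, had -1.56 and -0.53, -1.56 and -1.71, -1.32 and -1.63, -1.76 and -2.27, -1.33 and -1.42, and -3.88 and -2.87. Cd74 was highest and H2-DMb1 lowest in ML day 3, in both cases with no overlap with any other array. A second H2-DMb1 probe, listed with transcripts of H2-DMb1 and H2-DMb2, split in EB day 3 at -0.56 and -3.77, so its change of 2.07 (SE 0.89) in embryoid bodies rests on 1 array. H2-Eb1, the beta chain of the E molecule, had -2.56 and -3.18, -3.05 and -3.80, -3.61 and -4.33, -4.55 and -5.02, -2.84 and -3.54, and -4.22 and -3.28, with EB day 4 the lowest. The monolayer changes from day 1 to day 3 were 1.05 (SE 0.25) for Cd74, 1.14 (SE 0.26) for H2-DMa, -2.0 (SE 0.40) for H2-DMb1 and -0.56 (SE 0.44) for H2-Eb1, against -0.32, 0.38, 0.16 and -0.55 in embryoid bodies.

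**Figure D2:**
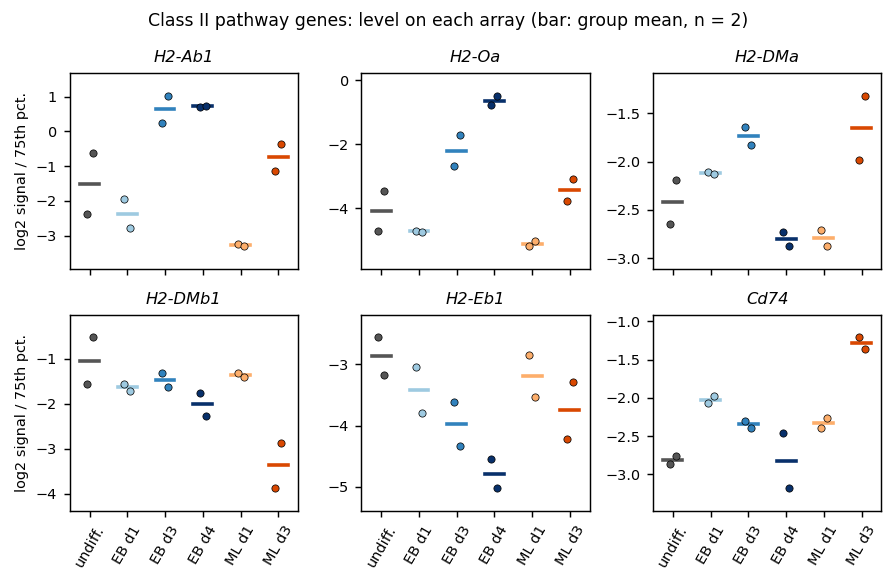
Level on each of the 12 arrays (vertical axis, log2 processed signal over the array's 75th percentile, a separate scale for each gene) for 6 class II pathway genes in the 6 groups, with a point for each array and a bar at the mean of 2. H2-Ab1 and H2-Oa are high in EB day 3 and EB day 4, at 0.70 and 0.74 for H2-Ab1 in EB day 4, whereas Cd74 is highest and H2-DMb1 lowest in ML day 3.

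Counted over all 56 member probes without a test, the change from day 1 to day 3 in embryoid bodies was at least 2-fold upward in 6 probes and downward in 0, where 6.9% of all 26176 probes kept were at least 2-fold higher and 5.96% lower. The 6 are 3 probes of H2-Ab1, 2 of H2-Oa and 1 of H2-DMb1. In monolayers 39 were higher and 2 lower by this measure, against 9.23% and 9.1% of all probes, and the 2 are both of H2-DMb1. The median change of the members was -0.02 in embryoid bodies (all probes, -0.08) and 1.82 in monolayers (all probes, -0.13). The change in embryoid bodies minus that in monolayers was at least 2-fold lower in 34 and higher in 3, against 6.34% and 7.07% of all probes, with a member median of -1.49. Since these contrasts chose the members, nothing is read from these counts.

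**Figure D3:**
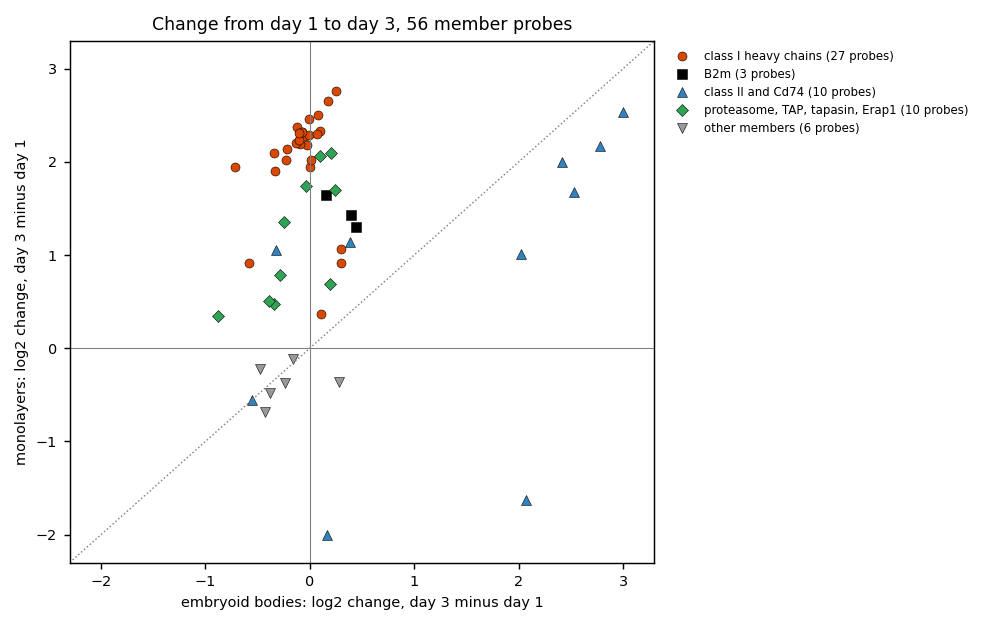
Log2 change from day 1 to day 3 for the 56 member probes that passed the filter, in embryoid bodies (horizontal axis) and monolayers (vertical axis), with a symbol for each probe by its role and a dotted line where both changes are equal. Class I probes lie near 0 on the horizontal axis and mostly around 2 on the vertical, H2-Ab1 and H2-Oa lie to the right (3.00 and 2.53 for H2-Ab1), and the lowest probe is that of H2-DMb1 at -2.0 in monolayers.

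Embryoid bodies were compared with monolayers at day 3 to ask how far the formats differed in these genes at 1 time. These arrays also serve the contrasts that chose the members, and the formats lie on different slides of 1 scan day, so the comparison is not independent of the choice. The 10 class I genes called at their brightest probe, counting the non-coding class I locus H2-K2, were 2.17-fold to 3.84-fold lower in embryoid bodies at day 3. H2-K1 had 3.99 and 3.92 against 5.15 and 4.99, a log2 difference of -1.12 (SE 0.21, adjusted p = 0.0261), and H2-D1 one of -1.32 (SE 0.23, adjusted p = 0.0218). H2-T23 differed by -1.29 (adjusted p = 0.0158), H2-Q7 by -1.32 (adjusted p = 0.0155), H2-Q2 by -1.47 (adjusted p = 0.0115), and H2-Bl by -1.94 (SE 0.30, adjusted p = 0.0144). H2-Gs10, H2-Q10, H2-Q5 and H2-K2 differed by -1.28, -1.38, -1.45 and -1.46. H2-DMb1 went the other way, 3.75-fold higher in embryoid bodies (log2 difference 1.91, SE 0.40, adjusted p = 0.0396). That call was lost in 7 of 14 alternative fits, among them quantile normalization (adjusted p = 0.0528) and no filter on dim probes (adjusted p = 0.0708), with values of 1.12 to 2.41.

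By role, all 6 probes of the classical class I genes, 10 of 19 non-classical probes and both H2-K2 probes were lower in embryoid bodies at day 3, and 1 of 5 probes of the DM and DO chains was higher. In all, 18 of 56 member probes were lower and 1 higher, where 1.38% of all probes were higher and 1.59% lower, with a median difference of -0.90 for members and 0.01 for all probes. None of the 3 B2m probes passed (-0.61 at the brightest, SE 0.36, adjusted p = 0.453), nor did any of the 10 probes of the proteasome, transporter, tapasin and Erap1. Psmb8 differed by -1.26 (SE 0.44, adjusted p = 0.179), Tapbp by -1.07 (SE 0.28, adjusted p = 0.0866) and Erap1 by -1.18 (SE 0.46, adjusted p = 0.228), each with no overlap between the formats. Cd74 differed by -1.07 (adjusted p = 0.0557), H2-Ab1 by 1.38 (adjusted p = 0.237) and H2-Oa by 1.23 (adjusted p = 0.191), also without overlap.

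The count at day 3 depended on single arrays. It was 11 of 56 when EB day 3 replicate 1 was left out and 1 when either EB day 3 replicate 2 or ML day 3 replicate 1 was, while a fit of the compared groups alone called 0. In these fits the count over all probes kept fell too, to 0 of 26176 in the fit of the compared groups alone. The differences of the 10 class I genes named here kept their direction in each of the 14 alternative fits, with H2-K1 between -1.20 and -1.03. Counting only member probes that share no run of 20 bases with another, 8 passed.

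**Figure D4:**
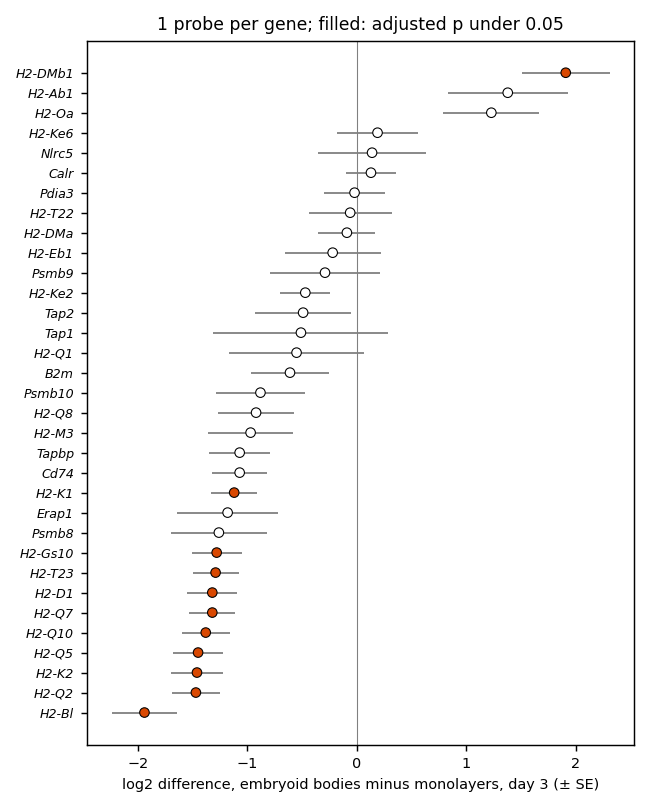
Log2 difference at day 3, embryoid bodies minus monolayers (horizontal axis), for 1 probe of each of the 33 member genes kept, with bars of 1 standard error from the limma fit and filled points where the adjusted p was under 0.05. The filled points on the left are class I genes between -1.94 and -1.12, and the only filled point on the right is H2-DMb1 at 1.91.

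At day 1 the formats were set side by side in the same way, again with arrays that serve the member choice. Class I genes had higher means in embryoid bodies, but no member probe passed. H2-K1 had 4.22 and 3.80 in embryoid bodies and 2.77 and 2.82 in monolayers, a difference of 1.22 (SE 0.21, adjusted p = 0.099), H2-T23 one of 0.94 (SE 0.21, adjusted p = 0.183) and H2-Q8 one of 1.55 (SE 0.35, adjusted p = 0.186). By limma 0 of 56 member probes passed, where 0.00382% of all probes passed as higher and 0.042% as lower. An unadjusted p under 0.05 was found in 21 member probes and in 2349 of all 26176 probes kept. With another background correction (normexp) and with a trended prior, 1 member probe passed. The member median was 0.62 and that of all probes -0.05.

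Summed levels of markers of other cell types are given beside these differences. Those of 15 genes listed as fibroblast markers were 111 to 157 in ML day 3, 81.1 to 81.9 in ML day 1, 40.3 to 44.8 in EB day 3, 41.5 to 47.0 in EB day 1, 49.2 to 63.4 in undifferentiated cells and 29.8 to 38.8 in EB day 4. The ML groups held the highest of these sums, while Col1a2, Col3a1 and Dcn of this list were highest in undifferentiated cells. Tagln, a smooth muscle and fibroblast actin-binding protein, had 6.88 and 6.22 in ML day 3 and made up most of the sum there, which was 35.9 to 39.4 without it and 38.9 to 39.0 in ML day 1. Col1a1, a collagen chain, had 2.89 and 2.52 in ML day 3. In EB minus ML at day 3, 2 of the 13 listed genes tested were lower, Tagln (-2.33) and Col1a1 (-2.17), and 1 was higher, Mgp (at least 2.75-fold, not well above background in ML day 3). Over all probes 1.59% were lower and 1.38% higher in that comparison. Fap and Lum did not pass the filter. Leukocyte markers, 17 genes, summed to 5.82 to 7.36 in ML day 3, 4.12 to 4.63 in ML day 1 and 2.82 to 4.20 in EB day 3. Coro1a, an actin-binding protein of leukocytes, carried most of the sum in ML day 3 at 2.56 and 2.29, and without it the sums were 0.936 to 1.45 in ML day 3, 1.9 to 2.21 in ML day 1 and 0.988 to 0.994 in EB day 3. In ML day 3, 8 of these were above background on both arrays and 9 on neither, and Ptprc, Adgre1, Itgam, Lyz2, Tyrobp and Cd53 did not pass the filter. Extraembryonic endoderm markers, 12 genes, summed to 56.8 to 58.2 in EB day 3, 48.7 to 58.7 in EB day 4 and 5.33 to 5.82 in ML day 3. Foxa2 carried most of the sum in each of these groups. Without it the sums were 12.9 to 21.2, 23.1 and 2.12 to 2.48, in that order. Ttr and Apoa1 did not pass the filter. Amn, Cubn and Lama1 were lower in EB day 3 than in undifferentiated cells, while Gata6 and Sox17 were higher. The part of these cell types in the results was not tested, and in bulk RNA more cells of a type and more RNA per cell cannot be told apart.

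Early differentiation was read by setting day 1 against undifferentiated cells, across slides and scan days that cannot be told apart from the groups. The day 1 arrays also serve the member choice. In monolayers many class I genes fell within the first day, at 4 of 6 classical probes, 8 of 19 non-classical probes and both H2-K2 probes. H2-T23 fell by 1.31 (SE 0.21, adjusted p = 0.00783), H2-K2 fell by 1.31 (SE 0.24, adjusted p = 0.011), H2-Q10 by 1.12 (adjusted p = 0.0137), H2-Q2 by 1.04 (adjusted p = 0.0157) and H2-K1 by 0.91 (SE 0.21, adjusted p = 0.0212). H2-Q5, H2-Gs10 and H2-Q7 fell by 1.02, 0.91 and 0.88. Psmb10 rose by 1.59 (SE 0.41, adjusted p = 0.03), Pdia3 by 0.94 (SE 0.28, adjusted p = 0.0453) and H2-Ke2 by 0.80 (adjusted p = 0.042). In all, 16 of 56 member probes were lower and 3 higher, where 10.3% of all probes rose and 8.25% fell, with medians of -0.58 and 0.06. All 3 rises were lost with quantile normalization (Psmb10 1.12, adjusted p = 0.0899, Pdia3 0.53, H2-Ke2 0.35) and with the authors' deposited values, each of which gave 15 lower and 0 higher. With the replicate number as a block Pdia3 (adjusted p = 0.0568) and H2-Ke2 (adjusted p = 0.053) were lost too, and each was lost in 8 of 13 alternative fits.

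The dimmest B2m probe also fell, from -3.54 and -3.24 to -6.05 and -5.47, where it was not well above background in ML day 1, a bound of at least 3.19-fold. The brightest did not pass (-0.42, adjusted p = 0.441), nor did Tapbp (0.45), Tap2 (-0.04) or Psmb8 (1.06, adjusted p = 0.117). The count of 19 was 2 without undifferentiated replicate 2 and 0 without either ML day 1 array, with H2-K1 between -1.27 and -0.88 over 13 alternative fits. Leaving out each of these arrays lowered the count over all probes as well. With 1 probe per gene 11 of 33 passed.

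In embryoid bodies at day 1, 5 of 56 member probes were higher and 0 lower than in undifferentiated cells, where 7.32% of all probes rose and 6.97% fell, so the share of members that rose was close to that of all probes. Psmb10 rose 3.85-fold (log2 1.94, SE 0.41, adjusted p = 0.0192), from 4.94 and 3.97 to 6.78 and 6.02. Psmb8 rose 3.40-fold (log2 1.76, SE 0.44, adjusted p = 0.0309), Tapbp 1.99-fold (SE 0.28, adjusted p = 0.0458) and H2-Q8 3.3-fold (log2 1.72, SE 0.35, adjusted p = 0.0167). H2-K1 differed by 0.30 (SE 0.21, adjusted p = 0.342) and Erap1 by 1.49 (SE 0.46, adjusted p = 0.058). The Tapbp call was lost in 9 of 13 alternative fits, among them normexp background, quantile normalization (0.77, adjusted p = 0.114), the authors' deposited values and no filter on dim probes, and that of Psmb8 in 5. Quantile normalization and the authors' deposited values each gave 4 higher and 1 lower. The count was 0 when undifferentiated replicate 2 or EB day 1 replicate 1 was left out, and 2 when EB day 1 replicate 2 was. Over all probes the count also fell without each of these arrays. EB day 1 replicate 1 stood above replicate 2 in 49 of 56 member probes, with a median gap of 0.43 against 0.05 over all probes.

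The later embryoid bodies were compared with undifferentiated cells on arrays that take no part in the contrasts behind the choice of members. In all, 15 of 56 member probes were lower and 5 higher in EB day 4, where 24.1% of all probes fell and 17.4% rose, so falls were about as frequent among members as among all probes and rises less so. H2-Oa rose from -4.72 and -3.46 to -0.78 and -0.48, which is 11-fold (log2 3.46, SE 0.44, adjusted p = 0.000459), and H2-Ab1 4.65-fold (log2 2.22, SE 0.55, adjusted p = 0.0107). H2-Q8 rose by 1.31 (SE 0.35, adjusted p = 0.0153). H2-M3 fell by 1.43 (SE 0.39, adjusted p = 0.0163), Psmb9 by 1.46 (SE 0.50, adjusted p = 0.0423), H2-Q5 by 0.79 (adjusted p = 0.0228) and H2-T23 by 0.70 (adjusted p = 0.0251). With the replicate number as a block the call of Psmb9 was lost (adjusted p = 0.0543). H2-Q10 and H2-Q1 fell by 0.65 and 1.74, the latter lost in 8 of 13 alternative fits, the block among them (adjusted p = 0.0622). H2-Eb1 fell at least 2.66-fold, being not well above background in EB day 4. The size of that fall depended on the background correction, since with normexp background H2-Eb1 differed by only -0.19 and its call was lost (adjusted p = 0.533). Tap1 fell by 2.86 (SE 0.80, adjusted p = 0.0186), a value that rests on EB day 4 replicate 2 at -6.04, since the call was lost without that array. Only 1 EB day 4 array was well above background for Tap1. The call was also lost with normexp background (-0.65, adjusted p = 0.101) and in a fit of the compared groups alone (adjusted p = 0.0903). H2-K1 differed by -0.07 and H2-D1 by -0.25 at their brightest probes, and neither passed. Another H2-K1 probe, 3610 bases upstream, differed by -0.65. Of the 6 probes of the classical class I genes, 1 was lower by limma.

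Slide, scan day and scanner cannot be told apart from these groups. The count of 20 was 11 without either undifferentiated array, 12 when EB day 4 replicate 1 was left out and 6 when EB day 4 replicate 2 was. Each of these omissions lowered the count over all probes too. Of the 11 genes called at their brightest probe, only H2-Oa passed in every alternative fit it was in, 12 in number, at 2.04 to 4.09.

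From EB day 3 to EB day 4 all 3 inducible proteasome subunits fell. Psmb9 fell by 1.80 (SE 0.50, adjusted p = 0.0472), Psmb10 by 1.74 (SE 0.41, adjusted p = 0.0291) and Psmb8 by 1.57 (SE 0.44, adjusted p = 0.0487), with Tap2 falling by 1.83 (SE 0.44, adjusted p = 0.031) and H2-DMa by 1.07 (SE 0.26, adjusted p = 0.0315). With the replicate number as a block Psmb9 was lost (adjusted p = 0.0617). In each of these genes both EB day 4 arrays lay below both EB day 3 arrays. H2-Oa differed by 1.56 (SE 0.44, adjusted p = 0.0502) and H2-Ab1 by 0.08. In all, 10 of 56 member probes were lower and 0 higher, where 8.15% of all probes fell and 3.85% rose, and the EB day 3 arrays also serve the choice of members. The count of member probes was 0 in a fit of the 2 groups alone, where 1 of all 26176 probes passed. It also fell without EB day 3 replicate 1 or either EB day 4 array, as did the count over all probes. Leaving out 1 array at a time, the member median ran from -0.56 to -0.35.

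Probes of 1 gene did not always tell the same story in EB day 4. For Calr, the probe at chr8:87366192-87366251 (minus strand, mm9) had 3.61 and 3.54 in EB day 4 and differed from undifferentiated cells by -0.34, while the probe 2337 bases upstream along the strand had 0.03 and 0.05 and fell by 1.94 (SE 0.23, adjusted p = 0.000338). For Tapbp, the downstream probe differed by 0.25, and the one 2926 bases upstream fell by 1.19 (SE 0.24, adjusted p = 0.00438). Both genes gave the lower value at the upstream probe, in the same direction as 10 of the 15 genes with 2 or more mapped probes in this comparison, where the median upstream minus downstream difference was -0.58. In ML day 3 against ML day 1, 7 of these 15 genes were lower at the upstream probe, with a median of 0.01. H2-M3 and H2-Q10 were among the exceptions in EB day 4. EB day 4 was the group with the lowest share of probes above background, 52.1% and 53.8%, and the part of this in the probe differences was not tested.

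Other genes of the pathway, from a list of 64 partners (chaperones, proteasome regulators, class II factors, interferon receptors and signalling, class I-like molecules), were set beside the members. At day 3, EB against ML, 0 of 59 tested passed by limma in either direction, where 1.38% of all probes were higher and 1.59% lower. Of the 59, 4 had an unadjusted p under 0.05, as did 4431 of all 26176 probes kept. The median of the partners was -0.01. In monolayers at day 3 against day 1, Irf2, an interferon regulatory factor, was at least 2.22-fold higher and Cd80, a costimulatory ligand, at least 2.88-fold lower, the dim group of each being not well above background. Fcgrt, the neonatal Fc receptor, was lower (-3.28, with only 1 ML day 3 array above background), as was Raet1a, a ligand of natural killer cells (-2.41). Irf1, a factor that acts on class I promoters, had 4.71 and 4.82 in ML day 1 and 5.49 and 5.53 in ML day 3. In day 1 against undifferentiated cells, 7 of 59 partners rose and 4 fell in embryoid bodies and 9 rose and 8 fell in monolayers. Over all probes 7.32% rose and 6.97% fell in embryoid bodies, and 10.3% rose and 8.25% fell in monolayers. Psme2, a proteasome activator subunit, rose in both, by 1.55 and 0.98, as did Irf1, by 1.25 and 1.00. In EB day 4 against undifferentiated cells, 8 of 59 rose and 10 fell, where 17.4% of all probes rose and 24.1% fell. Among them were Cd40, up by 2.29, and Fcgrt, which fell to a level not well above background in EB day 4. From EB day 3 to EB day 4, Ifngr2 rose by 1.16 and Irf1 fell by 1.17, where 3.85% of all probes rose and 8.15% fell.

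Genes known to respond to interferon, 25 on the list and 23 tested, moved in both directions. In monolayers at day 3 against day 1, Iigp1 was at least 6.11-fold and Usp18 at least 4.15-fold higher, and Oas2 at least 7.04-fold and Rsad2 at least 1.51-fold lower, each not well above background in its dimmer group. Ifitm1 was also lower (-2.13), and was measured in both. These genes had the largest changes of the list in size, in a contrast given without a test. The list median was 0.21, against -0.13 over all probes. In embryoid bodies Iigp1 and Usp18 were also higher at day 3 than at day 1 and Oas2 and Rsad2 lower. Their arrays did not overlap between these days, while those of Ifitm1 did. At day 3, EB against ML, Cxcl10, a chemokine, was lower (-4.66), and Ifitm1 was higher (1.55). Cxcl10 had -3.75 and -3.28 in EB day 3 and 2.10 and 0.18 in ML day 3. In EB day 4 against undifferentiated cells 1 of 23 rose and 10 fell, where 17.4% of all probes rose and 24.1% fell. The list median was -1.33 against -0.11 over all probes. At day 1 against undifferentiated cells, 1 rose and 3 fell in embryoid bodies and 2 rose and 2 fell in monolayers, with Irgm1, an interferon-inducible GTPase, up by 2.74 and 2.60. The shares of all probes that rose and fell were 7.32% and 6.97% in embryoid bodies and 10.3% and 8.25% in monolayers.

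Promoter sequence was read from RefSeq on GRCm38.p6 for the 35 of 49 member genes with an entry, whether or not a probe was kept. This gave 38 windows of 300 bases (250 before the gene start and 50 after), 24 of them of genes with a probe kept. The interferon response element, searched as GAAA, any 2 bases and GAAA on both strands, was in 4 member windows, those of B2m, Erap1, H2-T22 and H2-T23, and in 3.44% of all 32851 windows. The kappa B site, searched as GGGGA, any 1 base and TCCCC, was in 3 member windows, both of H2-K1 and that of H2-D1, and in 0.0487% of all windows, 16 in number. The CCAAT box, searched as CCAAT, was in 32 of 38 member windows, in 19 of the 24 of genes kept, and in 37.4% of all windows. GGGCGG, the GC box, was in 8 member windows and in 35.7% of all. No spelling contains another, and a match is a description of letters and not of binding.

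The 250 bases before the start of H2-K1 and H2-D1 are shown because both hold the kappa B letters, in capitals. They lie at chr17:34000348-34000597 on the minus strand and chr17:35262844-35263093 on the plus strand in GRCm38.p6, with the first letter of the match 111 bases before the start of H2-K1 and 171 before that of H2-D1.
H2-K1: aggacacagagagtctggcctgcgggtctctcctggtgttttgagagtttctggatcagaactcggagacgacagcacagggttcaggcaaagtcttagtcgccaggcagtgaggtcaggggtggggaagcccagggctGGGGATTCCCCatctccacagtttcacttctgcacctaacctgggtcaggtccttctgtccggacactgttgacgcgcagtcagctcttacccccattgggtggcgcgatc
H2-D1: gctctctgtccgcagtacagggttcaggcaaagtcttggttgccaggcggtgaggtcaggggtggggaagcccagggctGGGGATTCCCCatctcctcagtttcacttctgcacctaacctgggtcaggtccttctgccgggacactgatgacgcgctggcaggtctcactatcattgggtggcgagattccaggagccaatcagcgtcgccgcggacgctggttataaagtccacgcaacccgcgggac

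The corresponding bases of B2m, at chr2:122147437-122147686 on the plus strand, and H2-T23, at chr17:36032702-36032951 on the minus strand, carry the interferon response element in capitals, in H2-T23 as its reverse complement. The match begins 139 bases before the start of B2m and 124 before that of H2-T23.
B2m: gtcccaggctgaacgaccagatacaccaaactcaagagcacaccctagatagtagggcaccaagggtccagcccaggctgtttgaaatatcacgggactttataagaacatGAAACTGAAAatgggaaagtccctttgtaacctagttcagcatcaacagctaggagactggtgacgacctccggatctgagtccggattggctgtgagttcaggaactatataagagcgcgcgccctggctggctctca
H2-T23: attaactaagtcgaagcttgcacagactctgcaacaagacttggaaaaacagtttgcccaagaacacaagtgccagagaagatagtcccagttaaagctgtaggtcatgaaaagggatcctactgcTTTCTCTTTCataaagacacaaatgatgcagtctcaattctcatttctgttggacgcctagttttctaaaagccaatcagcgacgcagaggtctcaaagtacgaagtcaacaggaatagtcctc

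The kappa B letters were found in the windows of both classical genes, and the spelling searched for the interferon response element in neither. Other spellings of that element were not searched, so no lack of an interferon element is read from this. H2-Q7 and H2-Q2, whose changes were close to those of H2-K1, held neither spelling in these windows. No factor's binding was measured here.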

How the data were processed

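RNA of 12 samples was hybridised to one-colour Agilent whole mouse genome arrays. The deposited files hold spot intensity from Feature Extraction, versions 10.5.1.1, 10.7.1.1 and 10.7.3.1 per the file headers (9.5.1.1 in the submitters' processing notes), background-subtracted by that software. The deposited flags for background and outliers are yes or no values per the file headers. From these, spots flagged as outliers were dropped, spots of a probe averaged, and log2 processed intensity minus the array's log2 75th percentile was computed, the deposited scale being linear. The authors' deposited value table, also an intensity, was an alternative. Probes were kept if well above background on both arrays of a group (26176 of 41174). Names follow the newer of 2 annotations in the files, updated through RefSeq accessions for the gene lists. limma 3.58.1 in R 4.3.3 fitted 6 group means over all 12 arrays (6 residual degrees of freedom) for 9 contrasts, 6 of them tested, with Benjamini-Hochberg adjustment over all probes kept and no replicate block. In the 3 contrasts behind the choice of members, the member probes were counted past a 2-fold change and not called. Replicates are 2 a group, so p-values measure the spread between these samples only.

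Members and lists were chosen with earlier results of these data known. For each gene the probe of highest mean level was described if called in a tested comparison, changed by at least 1 log2 unit from day 1 to day 3, or of a core pathway gene, which gave 32 genes. H2-Ke6 alone of the kept genes was not. On simulated data with the real spread, for EB against ML at day 3 over 26176 probes, 12 of 67 probes changed by 1 log2 unit, 49 of 67 by 2 and 63 of 66 by 3 were called, with 2 unchanged probes called.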

Additional observations from a re-analysis of the deposited data

Results flagged for a closer look

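For a pair of genes both day 3 arrays lay below both day 1 arrays in embryoid bodies and above both in monolayers. Cd74 differed by -0.32 (SE 0.25) in embryoid bodies and by 1.05 in monolayers. Psmb10 differed by -0.88 in embryoid bodies and by 0.35 (SE 0.41) in monolayers. Its nearest embryoid body arrays were close, at 6.02 on day 1 and 5.98 on day 3. The difference between formats was not tested for either gene, since these contrasts chose the members.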

How the results depend on the processing

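Counts below are member probes called, or changed at least 2-fold in the 3 contrasts behind the choice of members. Leaving out 1 array at a time, they ran from 6 to 9 for EB day 3 against day 1, 39 to 42 for ML day 3 against day 1, 31 to 41 for the difference of these changes, 0 to 0 for EB against ML at day 1, 1 to 23 at day 3, 0 to 5 for EB day 1 and 0 to 21 for ML day 1 against undifferentiated cells, 6 to 12 for EB day 4 against undifferentiated cells and 0 to 12 for EB day 4 against EB day 3. A lone array left in a group is assumed to vary like the other groups. Without the filter on dim probes the count went from 5 to 3 for EB day 1 against undifferentiated cells, from 20 to 33 for EB day 4 against undifferentiated cells and from 10 to 24 for EB day 4 against EB day 3, over more probes. The share called over all probes moved in the same directions, from 14.3% to 6.67%, from 41.5% to 48% and from 12% to 26.3%, in that order. Normexp background left 3 and the strict filter 2 for EB day 3 against day 1. With 1 probe per gene, and so fewer probes, the counts were 2 for EB day 3 against day 1, 23 for ML day 3 against day 1, 20 for the difference of changes, 11 each for EB against ML at day 3, ML day 1 against undifferentiated cells and EB day 4 against undifferentiated cells, and 6 for EB day 4 against EB day 3. Fitting only the groups compared left 0 for EB against ML at day 3 and EB day 4 against EB day 3, 2 for EB day 1 and 5 for ML day 1 against undifferentiated cells. Over all 26176 probes these fits called 0, 1, 1303 and 1076, in that order. Normexp background and a trended prior each gave 1 for EB against ML at day 1. Quantile normalization and the authors' deposited values moved no total by over 1.5 times, but took the higher probes of ML day 1 against undifferentiated cells from 3 to 0 and the 1 higher probe of EB against ML at day 3 to 0. The causes were not tested where fewer probes or arrays do not show them.

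A pair of alternatives was chosen after seeing the data. Members sharing no run of 20 bases gave 8 for EB against ML at day 3 and 11 for ML day 1 against undifferentiated cells. Members in either annotation, 83 probes, moved no count by over 1.5 times.

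The labels tie the replicate number to a clone without saying that a clone is the same in every group, and correlations of the arrays' deviations from group means ran from -0.148 to 0.228 over 15 pairs of groups, so the number was not taken as pairing. With the replicate number as a block the counts were 19 for EB against ML at day 3, 20 for ML day 1 and 6 for EB day 1 against undifferentiated cells, 20 for EB day 4 against undifferentiated cells and 12 for EB day 4 against EB day 3. Of the calls named, 5 were lost under it. No call named in the tested comparisons changed sign under any alternative run, while 23 of the 64 changes from day 1 to day 3 described did, the largest of these being 0.47 in size, such as Psmb8 in embryoid bodies (0.10, from -0.58 to 0.77) and Psmb9 in monolayers (from -0.24 to 1.18). Precision is limited by 2 arrays a group. Signal near background limits it further for Nlrc5, H2-Oa, the dim probes of B2m and Erap1, and H2-Eb1 and Tap1 in EB day 4.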
